A study of Mus musculus with 2 samples.

Results

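The genes described here are those whose level in a mouse embryonic stem cell clone carrying Nr5a2-EGFP lay between the levels in a clone carrying Oct4-EGFP and a clone carrying EGFP alone, at least 2-fold away from each. They were chosen from the measured ratios: a probe was taken when its log2 ratio was at least 1 on one of the 2 arrays and at most -1 on the other, with at least 1 channel well above background on each array and with probes on chromosomes X and Y left out (1316 probes). Of 29859 probes that met the background and chromosome conditions, 193 probes of 191 genes were chosen. In 114 probes of 113 genes the Oct4-EGFP clone was highest and the EGFP clone lowest (0.382% of the probes), and in 79 probes of 78 genes the EGFP clone was highest and the Oct4-EGFP clone lowest (0.265%). These counts, and the ratios of these probes, are what the rule selected on and are given as a description.

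The parent line, ZHBTc4, is a mouse embryonic stem cell line in which both endogenous Oct4 alleles are disrupted and an Oct4 transgene is switched off by doxycycline. The 3 clones were Nr5a2-EGFP (clone 26), Oct4-EGFP (clone 9) and EGFP (clone 2-5), each a stable transfectant of that line with a pCAG-IP vector, and all were given doxycycline before harvest; its dose and duration are not given in the sources used here. All were grown on gelatin without feeder cells in 15% serum with 1000 IU/ml of leukemia inhibitory factor. Each group is 1 monoclonal line, so a difference between transgenes and a difference between clones cannot be told apart. On both 2-colour arrays the Nr5a2-EGFP clone was labelled with Cy5, against Cy3-labelled EGFP cells on the first array and Cy3-labelled Oct4-EGFP cells on the other, without replicates or a dye swap. No test was possible between clones, dye bias of a probe was not measured, and all ratios are of Nr5a2-EGFP over its partner.

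Oct4 (gene Pou5f1) is a transcription factor that keeps embryonic stem cells pluripotent, and its loss sends them towards trophoblast, the outer lineage that forms the placenta. Nr5a2 (liver receptor homolog 1) is an orphan nuclear receptor that binds DNA as a monomer, is known for bile acid and steroid pathways in liver and gonad, and can stand in for Oct4 in the reprogramming of somatic cells. Genes that Oct4 maintains are therefore read as highest in an Oct4-EGFP clone, and genes of the trophoblast programme as highest in a clone with EGFP alone, while an intermediate level in the Nr5a2-EGFP clone is a position on that scale and not a mechanism.

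The labels were checked first against the genes of the transgenes. The Nr5a2 probes read 1407 and 223 on the array with EGFP and 1317 and 240 on the array with Oct4-EGFP in the Nr5a2-EGFP clone, against 2856 and 382 in Oct4-EGFP cells and 2641 and 335 in EGFP cells, so both read lower in the clone that carries the transgene. The Pou5f1 probe read 104 and 28.8 in Nr5a2-EGFP cells, the second value not well above background, against 116 in Oct4-EGFP cells and 118 in EGFP cells. Whether these probes lie in the part of the transcripts that the transgenes carry was not tested, so the probes do not check the labels and every direction below rests on the labels. Neither gene was among the 191. Of 45 pluripotency genes measured, which include Sox2 and Zfp42 with signals in every clone, none was among the 191; since 0.477% and 0.36% of all named genes were chosen, a count of 0 in 45 is near the background. By gene means, 5 of the 45 were at least 2-fold higher and 20 at least 2-fold lower in Nr5a2-EGFP than in Oct4-EGFP cells (7.64% and 9.18% of all named genes), and 1 was higher and 5 lower than in EGFP cells (6.14% and 7.74%).

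The probes that carry the findings on imprinted RNAs are shown here, because the 2 probes of H19 gave opposite readings and because Airn was chosen through 1 of its 3 probes. All are 60 bases and are given 5′ to 3′ on the strand of the RNA. The first H19 probe lies at chr7:149761492-149761551 (mm9, minus strand), the second at chr7:149762417-149762476 (minus strand), and the Airn probe at chr17:12944784-12944843 (plus strand). H19 is a non-coding RNA, so neither probe lies in a coding exon or a UTR.
H19, probe chosen by the rule: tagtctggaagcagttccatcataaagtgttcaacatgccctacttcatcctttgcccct
H19, other probe: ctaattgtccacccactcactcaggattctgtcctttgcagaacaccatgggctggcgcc
Airn, probe chosen by the rule: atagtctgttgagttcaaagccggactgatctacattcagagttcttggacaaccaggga

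The 2 sets lay at similar distances from their neighbours. Where Oct4-EGFP was highest, the median log2 ratio was 1.35 over EGFP (range 1.00 to 5.58) and -1.42 over Oct4-EGFP (range -3.89 to -1.01), against medians of 0.05 and 0.04 over all probes. Where EGFP was highest, the medians were -1.33 over EGFP (range -4.19 to -1.0016) and 1.52 over Oct4-EGFP (range 1.01 to 4.79). Over EGFP, 6.97% of all probes were at least 1 and 7.77% at most -1, and over Oct4-EGFP 7.53% and 9.2%. From the difference of the ratios, the Oct4-EGFP and EGFP clones were a median of 7.82-fold apart in the first set and 8.21-fold in the other. Of all probes at which these clones were at least 4-fold apart by that measure, the 114 made up 21.2% of the 538 with Oct4-EGFP higher and the 79 made up 17.4% of the 454 with EGFP higher. By the Cy3 channels alone, which leave out the Nr5a2-EGFP readings, the shares were 13.6% (110 of 808) and 11.8% (77 of 651).

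**Figure D1:**
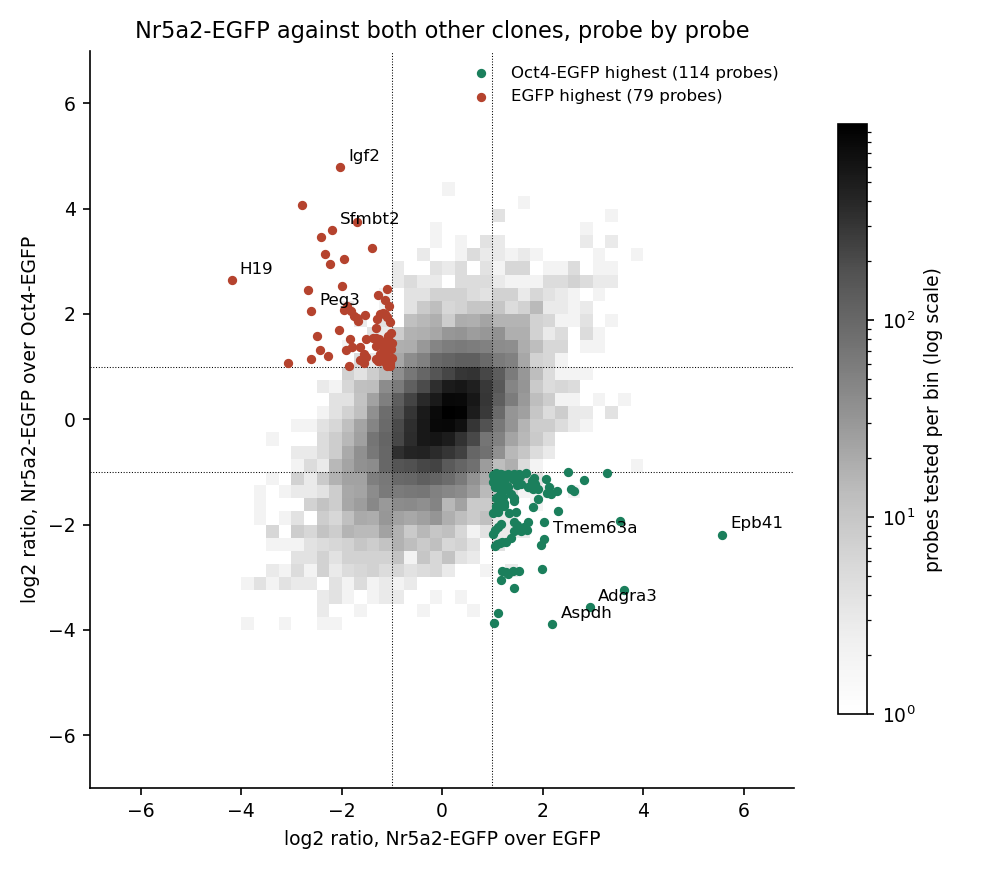
Each chosen probe by its log2 ratio of Nr5a2-EGFP over EGFP (x axis) and over Oct4-EGFP (y axis), with the number of all 29859 probes per bin of the plane in grey on a log scale and dotted lines at 2-fold. The 114 green probes (Oct4-EGFP highest) and 79 red probes (EGFP highest) fill the corners that the rule cut out, with Epb41 and H19 farthest out along the x axis.

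The selection ended at a threshold and not at a gap. With Oct4-EGFP highest, the probes just inside were Slc48a1, at 1.00 over EGFP and -1.20 over Oct4-EGFP, and Pcgf2, at 2.50 and -1.01; just outside were Trim40, at 1.27 and -0.9976, and Mup21, at 0.9964 and -1.23. With EGFP highest, Zfp946 (-1.0016 and 1.17) and Alk (-1.0019 and 1.45) were just inside, and Rpain (-0.9955 and 1.36) and Vav3 (-0.9892 and 1.45) just outside.

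In 83 of the 114 probes and 53 of the 79, all 4 channels were well above background. Among these, the Nr5a2-EGFP clone stood at a median of 48.4% of the log2 distance from EGFP to Oct4-EGFP (range 23.1% to 76.3%) with Oct4-EGFP highest, where 49 were nearer to EGFP and 34 nearer to Oct4-EGFP. With EGFP highest the median was 47.5% (range 29.9% to 74.3%), with 33 nearer to EGFP and 20 nearer to Oct4-EGFP. The rule asked for 2-fold on each side and so bounded these positions, which are given as a description. In the other 31 and 26 probes the lowest clone (EGFP in the first set, Oct4-EGFP in the second) was not well above background, so that the ratio against it rests on a dim signal. In 4 and 2 of these, only 2 of the 4 channels were well above background. No chosen probe was saturated. The probes of Tmprss7, Vwce and Scn2a held a spot flagged as an outlier.

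The Nr5a2-EGFP clone was read on both arrays, which gives the only measurement repeated between arrays here. After scaling the arrays to a common intensity distribution, its readings were at least 2-fold apart in 2 of the 114 probes (1.75%) and 4 of the 79 (5.06%), against 2.36% of all probes. The reading beside EGFP was the lower of the pair in most probes with Oct4-EGFP highest (higher in 34 of 114, median log2 difference -0.12) and the higher of the pair in most with EGFP highest (higher in 68 of 79, median 0.26), so that in both sets it leaned towards the partner on the same array. The SD of the same difference was 0.33 over the 29028 probes with both readings well above background. With the reading of the other array in place of its own, 114 of 114 and 77 of 79 probes still lay between the other clones, the exceptions being Igf2 and Nudt1, and 95 and 74 kept 2-fold on both sides. A probe chosen at 2-fold on both sides can leave its place only if its readings are at least 2-fold apart. The rule thus largely fixed the first pair of counts, and they are no independent support.

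Among the officially named genes with Oct4-EGFP highest and all 4 channels well above background, Epb41, Aspdh and Tmem63a stood farthest from both neighbours. Outside that limit, an unnamed transcript (TC1642954, at 3.62 and -3.24) and Adgra3 (2.94 and -3.56) lay farther from the nearer of their neighbours, with EGFP cells not well above background. Epb41 (protein 4.1, which links the spectrin and actin skeleton to the membrane) read 2988 and 2646 in Nr5a2-EGFP cells, 12096 in Oct4-EGFP cells and 62.6 in EGFP cells. Nr5a2-EGFP was 47.8-fold above EGFP and 4.57-fold below Oct4-EGFP. Aspdh, which encodes a protein with an aspartate dehydrogenase domain, read 439 and 757 in Nr5a2-EGFP cells, 11241 in Oct4-EGFP cells and 96.4 in EGFP cells. Against EGFP its log2 ratio was 2.19 and against Oct4-EGFP -3.89, so Nr5a2-EGFP stood nearer to EGFP, unlike Epb41. Tmem63a, a mechanically gated cation channel, read 905 and 1188 in Nr5a2-EGFP cells, 5761 in Oct4-EGFP cells and 221 in EGFP cells, near the middle at log2 ratios of 2.03 and -2.28.

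Slc10a1, the bile acid uptake transporter of hepatocytes, read 221 and 343 in Nr5a2-EGFP cells, 1468 in Oct4-EGFP cells and 69.1 in EGFP cells (log2 ratios 1.68 and -2.10). It was the only gene of a list of 29 genes tied to Nr5a2 in liver, steroid-making and stem cells that was chosen in either direction (0.477% of all named genes were chosen with Oct4-EGFP highest and 0.36% with EGFP highest). Cth, which makes cysteine from cystathionine, was chosen through both of its probes. At chr3:157557667-157557726 Cth read 865 and 1032 in Nr5a2-EGFP cells, 3254 in Oct4-EGFP cells and 247 in EGFP cells, and at chr3:157560183-157560242 it read 757 and 798, against 2201 and 347. The ratios were 1.81 and -1.66 at the first probe and 1.12 and -1.46 at the second, the same order of clones at both. Pfkfb3, which sets the level of the glycolytic activator fructose 2,6-bisphosphate, read 434 and 439 in Nr5a2-EGFP cells, 1126 in Oct4-EGFP cells and 70.1 in EGFP cells (2.63 and -1.36); it was 1 of 35 hypoxia and glycolysis genes, against the same 0.477%.

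Of the genes on the lists of signalling and lineage genes, 4 were chosen with Oct4-EGFP highest. Cdx1, a caudal homeobox factor and Wnt target, read 402 and 448 in Nr5a2-EGFP cells, 1047 in Oct4-EGFP cells and 112 in EGFP cells (1.84 and -1.23). Fzd4, a Wnt receptor, read 102 and 123 in Nr5a2-EGFP cells, 377 in Oct4-EGFP cells and 46.7 in EGFP cells (1.12 and -1.62). These were 2 of 41 Wnt pathway genes, a share to be read against the 0.477% of all 18042 named genes that were chosen with Oct4-EGFP highest. Tbx20, a T-box factor of heart mesoderm, read 1706 and 1325 in Nr5a2-EGFP cells, 6295 in Oct4-EGFP cells and 657 in EGFP cells (1.38 and -2.25), and was 1 of 12 mesoderm genes. Bambi, a decoy receptor that dampens signals of the TGF-beta family, read 67.4 and 52.3 in Nr5a2-EGFP cells, 108 in Oct4-EGFP cells and 30.1 in EGFP cells. EGFP cells were not well above background for Bambi, so the 2.24-fold by which Nr5a2-EGFP exceeded them rests on a dim signal.

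Adgrl1 (latrophilin 1, an adhesion G protein-coupled receptor) read 801 and 806 in Nr5a2-EGFP cells, 3061 in Oct4-EGFP cells and 69.2 in EGFP cells (3.53 and -1.92). Olfml2b, a secreted olfactomedin-like protein, had ratios of 2.31 and -1.74, Rgs8, which speeds GTP hydrolysis by G proteins, 1.49 and -2.01, and the netrin Ntn3 1.43 and -1.95. Tmtc3, which mannosylates cadherins in the endoplasmic reticulum, had 1.56 and -2.12. Spryd3 had 1.54 and -2.87, and Fam25c 1.47 and -1.76. The other probe of Spryd3 gave -0.20 and 0.32, the opposite order of clones. That of Tmtc3 gave -0.21 and -0.68, with Nr5a2-EGFP lowest. After normexp background correction and loess, 12 of the 18 probes named in this set kept 2-fold on both sides, and those of Slc10a1, Tmtc3, Ntn3, Fzd4, Bambi and the second probe of Cth did not, with loess ratios over EGFP of 0.93, 0.66, 0.81, 0.31, 0.39 and 0.91. Most named probes were picked for large ratios in bright channels. Of the whole set, 45 of 114 probes kept 2-fold on both sides.

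**Figure D2:**
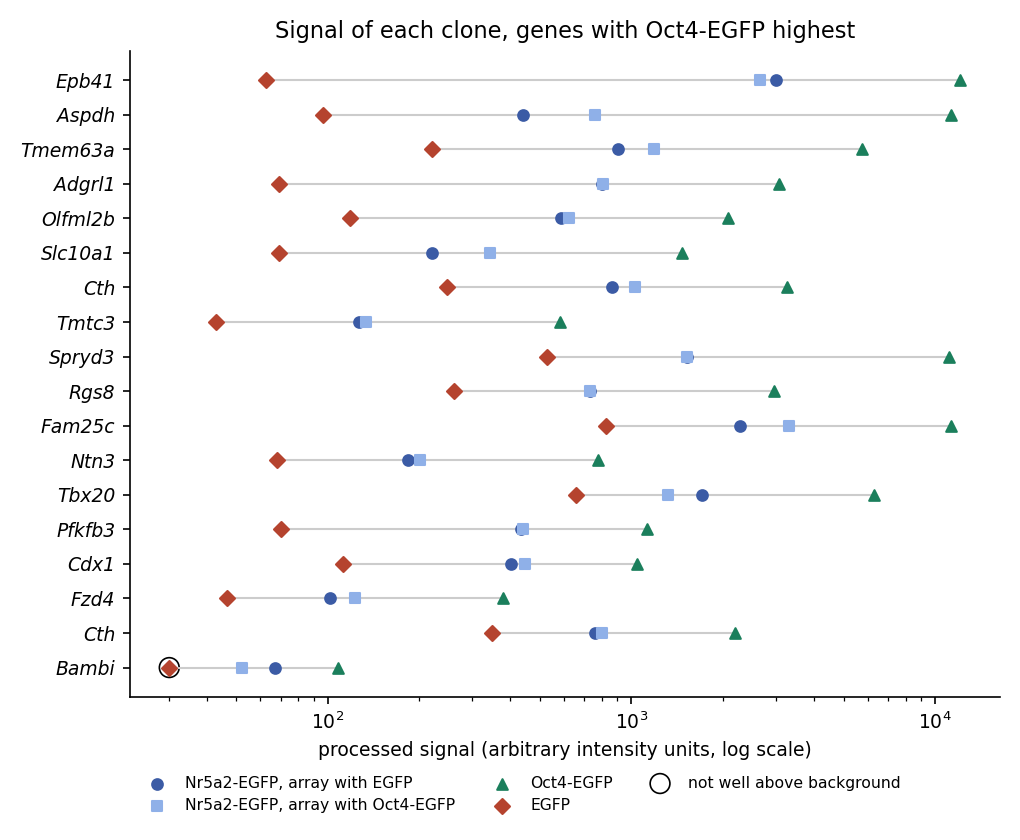
Processed signal of each clone in arbitrary intensity units on a log axis, for the named probes with Oct4-EGFP highest, with the Nr5a2-EGFP clone shown by its 2 readings. In every line the Nr5a2-EGFP readings lie between Oct4-EGFP (triangles) and EGFP (diamonds), Epb41 spanning the widest range, and the EGFP value of Bambi is ringed because it was not well above background.

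Adgrl1 was joined by Adgra3 and Adgrb2, so that 3 of 22 adhesion G protein-coupled receptors measured were chosen with Oct4-EGFP highest (0.477% of all named genes) and 0 with EGFP highest (0.36%); this list was made after the values were seen. Adgrb2 read 2066 and 3503 in Nr5a2-EGFP cells, 27017 in Oct4-EGFP cells and 829 in EGFP cells (1.32 and -2.95). Adgra3 read 70.4 and 95.8 in Nr5a2-EGFP cells, 1134 in Oct4-EGFP cells and 9.18 in EGFP cells, the last not well above background. With the lowest level well above background in its place, Nr5a2-EGFP was 6.75-fold above EGFP. After normexp and loess the log2 ratio of Adgra3 over EGFP was 0.65, less than 2-fold. The second probes gave another picture for 2 of the 3: Adgra3 at -0.35 over EGFP and -0.79 over Oct4-EGFP, and Adgrb2 at 0.42 and 0.11, while that of Adgrl1 had the same signs at 2.51 and -0.74. The median ratios of the 22 genes, the 3 chosen ones included, were 0.44 over EGFP and -0.41 over Oct4-EGFP, against 0.02 and 0.03 over all named genes. By the difference of the ratios, however, the median of Oct4-EGFP over EGFP was 0.06, against 0.01 over all named genes. By that measure 4 of the 22 were at least 2-fold higher in Oct4-EGFP and 3 lower (1493 and 1620 of all 18042 named genes). As a list, the 22 genes thus did not differ in 1 direction between those clones.

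With EGFP highest, imprinted genes were the list with the most genes chosen, of the 26 lists used. Imprinted genes are expressed from the maternal or the paternal copy alone, and many of them act in placenta and fetal growth. Of 53 imprinted genes measured, 5 (9.43%) were chosen with EGFP highest and 0 with Oct4-EGFP highest, against 0.36% and 0.477% of all named genes. By gene means over all probes, 1 imprinted gene was at least 2-fold higher and 12 at least 2-fold lower in Nr5a2-EGFP than in EGFP cells (6.14% and 7.74% of all named genes), and 10 were higher and 2 lower than in Oct4-EGFP cells (7.64% and 9.18%). The medians of the list were -0.15 over EGFP and 0.34 over Oct4-EGFP. Since the genes were chosen on these same ratios, nothing is read from the shares beyond the count.

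H19, the maternally expressed non-coding RNA, read 5505 and 3068 in Nr5a2-EGFP cells, 491 in Oct4-EGFP cells and 100609 in EGFP cells at the probe chosen. Nr5a2-EGFP was 18.3-fold below EGFP and 6.25-fold above Oct4-EGFP. The other H19 probe read 272 and 302 in Nr5a2-EGFP cells, 424 in Oct4-EGFP cells and 232 in EGFP cells, the opposite order of clones, at 0.23 over EGFP and -0.49 over Oct4-EGFP. Igf2, the paternally expressed growth factor whose probe lies 78.1 kb from that of H19 (chr7:149839661-149839720, minus strand), read 95.3 in Nr5a2-EGFP cells beside 390 in EGFP cells on the first array. On the other array it read 397 in Nr5a2-EGFP cells beside 14.4 in Oct4-EGFP cells, the last not well above background. The readings of the Nr5a2-EGFP clone thus differed by a log2 of -2.10 after scaling, and the one from the other array was level with EGFP (log2 ratio 0.06), so that Igf2 lay below EGFP on its own array only.

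Sfmbt2, a Polycomb group gene expressed from the paternal copy in extraembryonic tissue, read 3947 and 3592 in Nr5a2-EGFP cells, 299 in Oct4-EGFP cells and 18141 in EGFP cells. Its ratios were -2.20 over EGFP and 3.59 over Oct4-EGFP, and its Nr5a2-EGFP readings differed by a log2 of -0.08. Probes of 2 unnamed transcripts at chr2:10359731-10359790 and chr2:10360705-10360764, 156 kb from the Sfmbt2 probe at chr2:10516716-10516775, were chosen as well. The second of them (ENSMUST00000114864) read 1557 and 1077 in Nr5a2-EGFP cells, 97.6 in Oct4-EGFP cells and 8309 in EGFP cells, at -2.42 and 3.46. Whether these probes belong to the Sfmbt2 transcript was not tested.

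Peg3, a paternally expressed zinc finger gene, read 164 and 150.5 in Nr5a2-EGFP cells, 36.1 in Oct4-EGFP cells and 1007 in EGFP cells. Oct4-EGFP cells were not well above background, so the 4.17-fold by which Nr5a2-EGFP exceeded them rests on a dim signal. The log2 ratio over EGFP was -2.61. A second Peg3 probe was at 0.30 and 1.35. Airn, the paternally expressed antisense RNA of Igf2r, read 1197 and 830 in Nr5a2-EGFP cells, 220 in Oct4-EGFP cells and 2920 in EGFP cells at the probe shown above (-1.29 and 1.91). The other Airn probes had the same signs at smaller sizes, -0.01 and 0.29 at one and -0.03 and 0.68 at the other. Airn was the only one of these 5 genes in which further probes kept the order of the clones, and Sfmbt2 and Igf2 had no other probe that met the background condition.

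**Figure D3:**
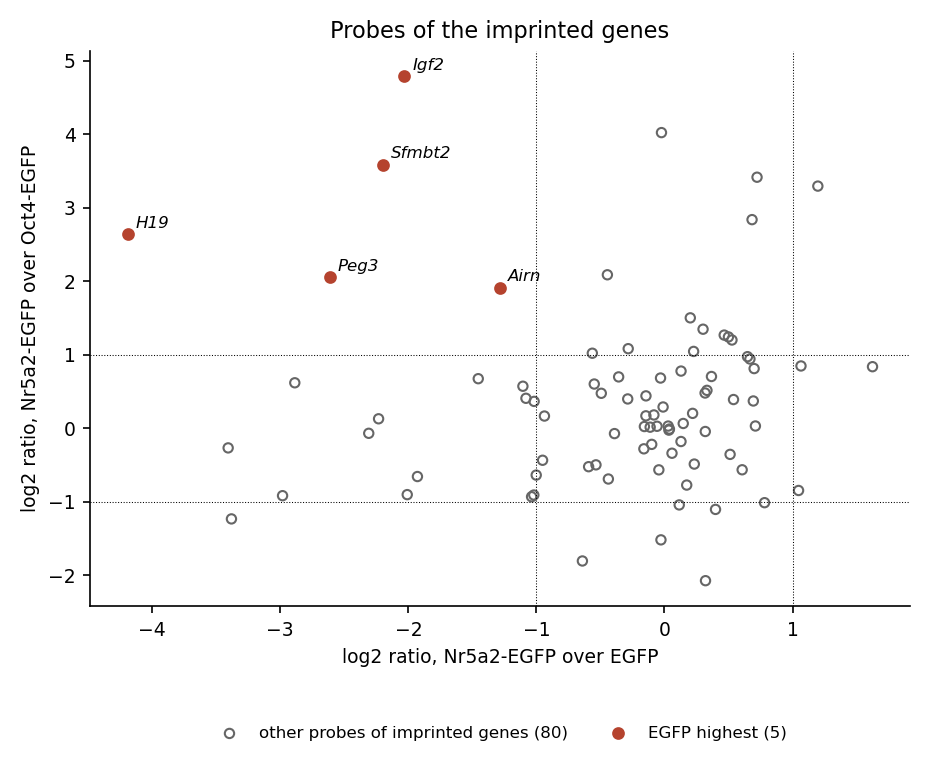
All probes of the 53 imprinted genes by their log2 ratio of Nr5a2-EGFP over EGFP (x axis) and over Oct4-EGFP (y axis), with dotted lines at 2-fold. The 5 probes with EGFP highest are filled and named, and the 80 other probes, the second probes of H19, Peg3 and Airn among them, are open circles.

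Trophoblast genes as a whole did not sit between the clones. Hand1, a basic helix-loop-helix factor of trophoblast giant cells and heart, was chosen with 4176 and 3316 in Nr5a2-EGFP cells, 642 in Oct4-EGFP cells and 10085 in EGFP cells (-1.27 and 2.37). With Igf2 and Sfmbt2, which are also on the imprinted list, it made 3 of the 42 trophoblast genes measured (7.14%), all with EGFP highest, against 0.36% of all named genes. By gene means, 19 of the 42 were at least 2-fold higher and 3 at least 2-fold lower in Nr5a2-EGFP than in Oct4-EGFP cells (7.64% and 9.18% of all named genes), with a median of 0.86. Over EGFP, 2 were higher and 4 lower (6.14% and 7.74% of all named genes), with a median of 0.00. Cdx2, a founding factor of the trophoblast lineage, was 4.71 over Oct4-EGFP but -0.36 over EGFP and so was not chosen. By the rule, the 3 chosen genes had a probe with Nr5a2-EGFP at least 2-fold above Oct4-EGFP and at least 2-fold below EGFP. Igf2 lay below EGFP on its own array only. Fewer cells of a type and less RNA per cell cannot be told apart in these bulk samples.

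The other named genes with EGFP highest covered a wide range of roles. Kif26a, a kinesin family member, read 775 and 621 in Nr5a2-EGFP cells, 107 in Oct4-EGFP cells and 3099 in EGFP cells (-2.00 and 2.54). A second Kif26a probe was at -1.04 and -0.06, so that Nr5a2-EGFP lay level with Oct4-EGFP there. Nos1, the neuronal nitric oxide synthase, read 2820 and 1691 in Nr5a2-EGFP cells, 379 in Oct4-EGFP cells and 10479 in EGFP cells (-1.89 and 2.16). A probe of an unnamed transcript 1.42 kb from it was also chosen. Krt20, a keratin of gut epithelium, read 1298 and 935 in Nr5a2-EGFP cells, 241 in Oct4-EGFP cells and 4410 in EGFP cells (-1.76 and 1.95). At the chosen probe, all 3 had the Nr5a2-EGFP clone near the middle of the distance, a position that the rule bounds.

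Ifi27l2a, an interferon-inducible gene, stood at a log2 of -1.82 against EGFP and 2.06 against Oct4-EGFP, and Uroc1, the urocanase of histidine breakdown, -2.06 and 1.69. Bpifb5, of the family of lipid-binding BPI proteins, stood nearer to EGFP at -1.39 and 3.26. Plcg2, a phospholipase C of immune receptor signalling, had -1.37 and 1.54, the Hsp70 relative Hspa12a -1.64 and 1.37, Lrmda -1.68 and 1.88, and Ms4a4d -1.52 and 1.52. Smad9, a transducer of BMP signals, read 86.9 and 76.7 in Nr5a2-EGFP cells, 13.8 in Oct4-EGFP cells and 186 in EGFP cells. Oct4-EGFP cells were not well above background for Smad9, so the 5.56-fold by which Nr5a2-EGFP exceeded them rests on a dim signal. With Bambi, Smad9 made 2 of 37 Nodal and BMP pathway genes, in opposite directions (0.477% and 0.36% of all named genes). After normexp and loess, 15 of the 17 probes named with EGFP highest kept 2-fold on both sides, and Peg3 (0.88 over Oct4-EGFP) and Smad9 (0.84 over Oct4-EGFP) did not. Most of these were again picked for large ratios in bright channels, and of the whole set 44 of 79 probes kept it.

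**Figure D4:**
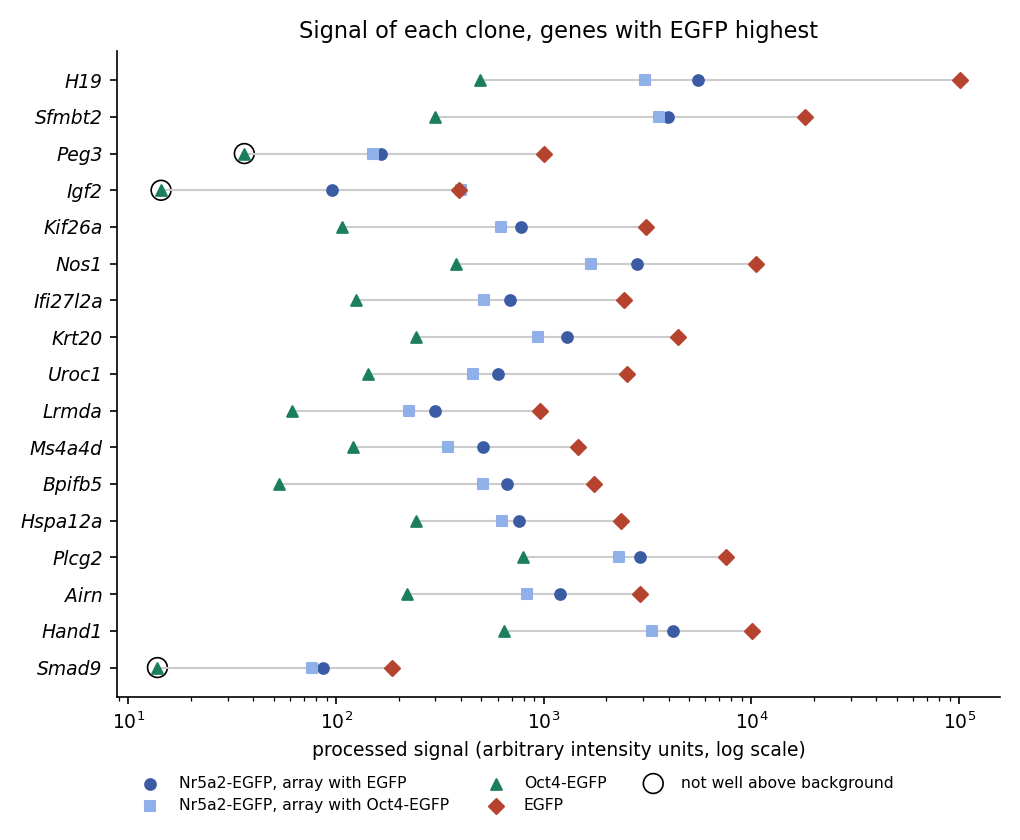
Processed signal of each clone in arbitrary intensity units on a log axis, for the named probes with EGFP highest, with the Nr5a2-EGFP clone shown by its 2 readings. EGFP (diamonds) lies to the right and Oct4-EGFP (triangles) to the left of the Nr5a2-EGFP readings in every line except Igf2, where the reading of the array with Oct4-EGFP (397) sits on the EGFP value (390).

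Other probes of the same genes, which the rule did not use, are the nearest thing to an independent reading. Of the genes with Oct4-EGFP highest, 39 had other probes meeting the background condition, 55 probes in all. Both signs were the same as in the chosen probe in 11 of these 55 (20%), against 17.3% of all probes with those signs, and 28 of the 39 genes had no other probe with them. The median log2 ratios of the 55 were 0.08 over EGFP and -0.24 over Oct4-EGFP. Of the genes with EGFP highest, 18 had 22 other probes, of which 9 (40.9%) had the same signs against 17.0% of all probes, with medians of -0.31 and 0.41, and 11 of the 18 genes had no such probe. No test was made of these shares, since probes of a gene share its arrays and can share its transcripts.

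Single genes show the range. For Epb41 the other probe gave 1.09 over EGFP and 0.59 over Oct4-EGFP, so that Nr5a2-EGFP was highest there. For Slc10a1 it gave -0.49 and -0.56, for Pfkfb3 0.53 and 1.52, and for Tbx20 the 2 other probes gave -0.45 and -1.78, and -0.91 and -2.21. Other probes with the same signs were found in Trf (transferrin, the iron carrier of plasma), at 1.01 and -1.78 in the probe chosen and 0.84 and -1.82 in the other, and in Casp4, an inflammatory caspase, at -1.51 and 1.18 and at -1.43 and 0.98. Rgp1, part of a complex that activates Rab proteins at the Golgi, and Cth were the only genes with 2 chosen probes, Rgp1 with EGFP highest at -1.55 and 1.23 and at -1.33 and 1.38.

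**Figure D5:**
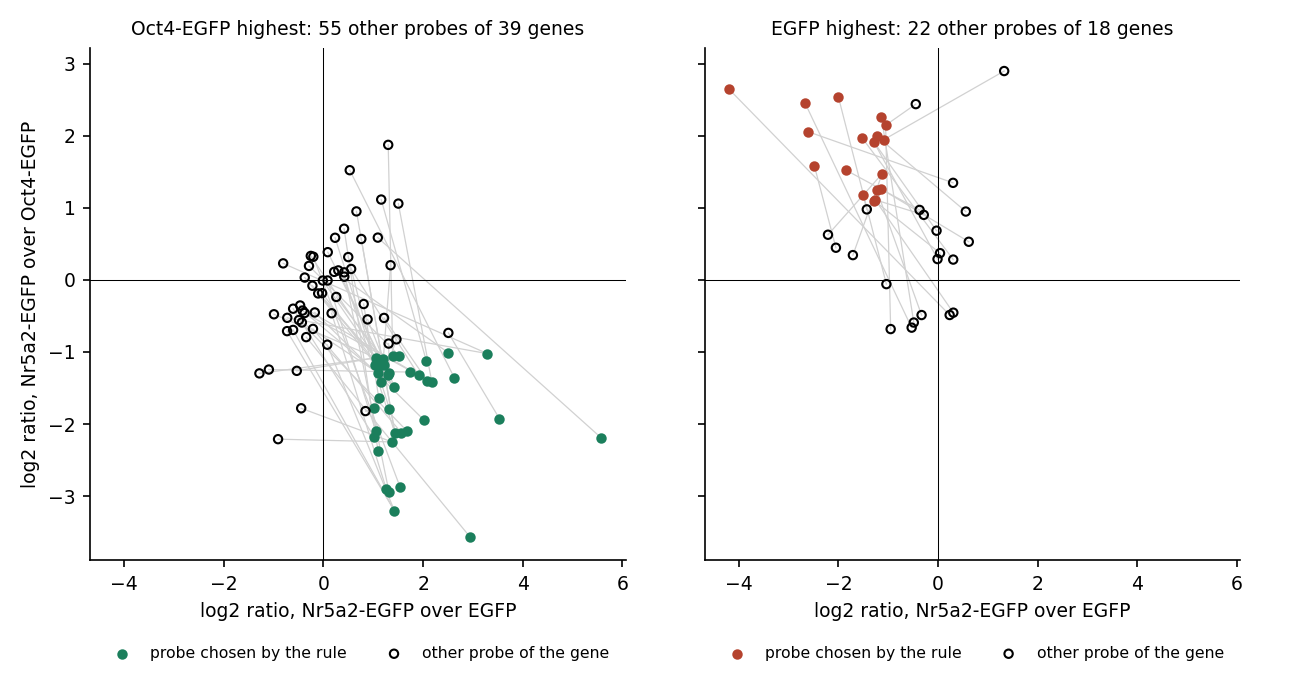
Chosen probes (filled) and all other probes of the same genes that met the background condition (open, joined to the chosen probe by a line), by log2 ratio of Nr5a2-EGFP over EGFP (x axis) and over Oct4-EGFP (y axis), for Oct4-EGFP highest (left) and EGFP highest (right). Of the 55 open circles at left 11 lie in the lower right quadrant with the filled ones, and of the 22 at right 9 lie in the upper left quadrant.

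The chosen probes were spread over all autosomes. The largest excess over the probes measured was on chromosome 1 with Oct4-EGFP highest (12 of 114, 10.5%, against 5.81% of all probes) and on chromosome 7 with EGFP highest (10 of 79, 12.7%, against 8.53%), where H19, Igf2 and Peg3 lie. All probes measured on chromosome 1 had medians of 0.24 over EGFP and 0.19 over Oct4-EGFP, against 0.05 and 0.04 over all chromosomes, and the part of this shift in the count was not tested. Chromosome 10 held 9 probes with Oct4-EGFP highest (7.89%) and 1 with EGFP highest (1.27%), against 4.75% of all probes. These counts are small and were not tested. Neighbours did not always share a direction: on chromosome 7, Aspdh (Oct4-EGFP highest) and Spib (EGFP highest, an ETS factor of blood cells) lie 59.5 kb apart. Spib read 1627 in Nr5a2-EGFP cells on the array with EGFP and 287 on the other, against 138 in Oct4-EGFP cells and 13653 in EGFP cells, so that its place between the clones held with either reading but its distance from each did not. The median G and C content of the chosen probes was 45% with Oct4-EGFP highest and 43.3% with EGFP highest, against 43.3% of all probes.

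Promoters were searched for letters known to be bound by Nr5a2 and by other factors of these lineages, on both strands, in windows of 250 bases before to 50 after each start (RefSeq, GRCm38.p6). With Oct4-EGFP highest 64 of the 86 named genes matched the table (84 promoters) and with EGFP highest 55 of 65 (71 promoters). The Nr5a2 monomer element CAAGGTCA was found in 2 promoters with Oct4-EGFP highest (2.38%, Casz1 and Ubxn10) and in 3 with EGFP highest (4.23%, Adtrp, Ambp and Defb42), against 1.56% of all 32851 promoters. The octamer ATGCAAAT was found in 3 (3.57%) and 2 (2.82%), against 1.74%. The GATA letters AGATAA were found in 4 (4.76%) and 7 (9.86%), against 11.2%, and the Cdx letters TTTATNG in 3 (3.57%) and 9 (12.7%, Igf2, Airn and Krt20 among them), against 10.9%. A match is a string of letters and not a bound site, and none of the motifs contains another.

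The bases before the start are printed for 1 gene of each direction with the Nr5a2 element, in capitals. In Ambp, a plasma protein precursor made by liver, the element's first base lies 8 bases before the start (chr4:63154173-63154422, GRCm38.p6, minus strand). In Casz1, a zinc finger factor, it lies 75 bases before the start (chr4:148889097-148889346, plus strand).
Ambp: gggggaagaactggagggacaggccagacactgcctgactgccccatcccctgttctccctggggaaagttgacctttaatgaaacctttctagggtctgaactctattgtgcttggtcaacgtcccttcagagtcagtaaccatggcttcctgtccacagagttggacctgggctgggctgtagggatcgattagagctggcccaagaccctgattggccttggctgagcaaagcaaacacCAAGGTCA
Casz1: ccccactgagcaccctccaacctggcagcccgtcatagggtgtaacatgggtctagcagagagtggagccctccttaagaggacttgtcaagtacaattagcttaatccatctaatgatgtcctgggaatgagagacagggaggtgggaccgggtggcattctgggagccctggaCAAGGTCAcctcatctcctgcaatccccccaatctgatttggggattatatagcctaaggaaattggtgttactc

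Ambp read 147 and 76.0 in Nr5a2-EGFP cells, 34.3 in Oct4-EGFP cells and 892 in EGFP cells, the Oct4-EGFP value not well above background. The 2.22-fold of Nr5a2-EGFP over Oct4-EGFP thus rests on a dim signal. Casz1 read 1761 and 1724 in Nr5a2-EGFP cells, 3647 in Oct4-EGFP cells and 848 in EGFP cells at the probe chosen (1.05 and -1.08), and none of its 4 other probes had the same signs. The element thus stood before genes of opposite directions.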

How the data were processed

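Total RNA of 3 ZHBTc4 clones was hybridised to 2 Agilent 2-colour arrays of 1 slide and scan; groups and dyes came from the labels. The deposited spot intensity values are scanner output of Agilent Feature Extraction 10.7.3.1 per the file headers (9.3.2.1 per the submitters' processing notes). Processed intensity was corrected for background (with detrending) and for dye on each array, and probe coordinates are mm9, per the file headers. The log10 ratio of Cy5 over Cy3 is the software's, per the file headers. A table of log2 ratios that the authors deposited follows it at r = 0.997 on both arrays (medians 0.03 and 0.05), with slopes of 0.988 and 0.987 and median differences of -0.0022 and 0.011 from it on the log2 scale. Its direction and scale are thus those of the software's ratio, with no further median centring.

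From 39429 probes (control spots left out, spots averaged), log2 ratios of the processed signals were taken. Single channels were scaled by Aquantile, and normexp (offset 50) with loess run as an alternative, in limma 3.58.1 (R 4.3.3). Names came from the files, updated through RefSeq for 76.5% of probes. Where a clone was not well above background (dim), its own level or the lowest level well above background was used, whichever was higher. The fold of the brighter clone over it is no strict lower limit and is open to dye bias. Named genes were, per direction, the 12 with an official symbol, all 4 channels above background and the largest smaller ratio, plus members on any of 26 lists. The members and lists were chosen with earlier results of these data known. The code of the rule was run on simulated ratios with independent noise, without dim signals or dye bias. That run does not measure the error of the rule on these arrays. The number of arrays limits the precision. No values of other samples were present.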

Additional observations from a re-analysis of the deposited data

How the results depend on the processing

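No paired analysis was possible because each comparison has 1 array, so the shared replicate number marks no pairs and the values come from no test. Against 114 probes with Oct4-EGFP highest and 79 with EGFP highest, normexp and loess left 45 and 45 (45 and 44 of them shared), the reading of the Nr5a2-EGFP clone from the other array gave 369 and 417, the mean of both readings 177 and 155, a 1.5-fold threshold 474 and 449, and a 3-fold threshold 14 and 19. Gene means over all probes gave 50 genes with Oct4-EGFP highest and 56 with EGFP highest, and no background filter gave 168 and 121. Median centring, the deposited value table, the filter on all 4 channels and leaving out outlier-flagged or saturated spots stayed within 1.5 times. Of 70 ratios of named probes under 4 alternatives, the only sign that changed was Igf2 over EGFP, at 0.064 with the other array's reading. By more than the SD of 0.33 between the Nr5a2-EGFP readings, loess moved 31 ratios and the other reading 25 (Igf2 apart), while centring and the deposited log2 values moved 0. The cause was not tested. With loess all 193 probes kept their signs. Loess used the same spots and the probes were chosen at 2-fold, so the kept signs are no independent support. Ratios against the lowest clone rest on a dim signal in 31 and 26 probes.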

Other observations

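Further chosen genes fall outside the rule for named genes and were picked after their values were seen. With Oct4-EGFP highest, Htr1d, a serotonin receptor, read 126 and 108 in Nr5a2-EGFP cells, 1376 in Oct4-EGFP cells and 58.6 in EGFP cells, close to EGFP at log2 ratios of 1.11 and -3.68. Cyp26c1, which breaks down retinoic acid, read 138 and 173 in Nr5a2-EGFP cells, 425 in Oct4-EGFP cells and 42.5 in EGFP cells, near the middle at 1.70 and -1.29. Hadh, an enzyme of fatty acid oxidation, read 8562 and 8946 in Nr5a2-EGFP cells, 19709 in Oct4-EGFP cells and 3233 in EGFP cells (1.41 and -1.14). The mitochondrial gene ND5, a subunit of respiratory complex I, was 1 of 13 mitochondrial probes measured, at 1.17 and -1.50. Of all probes, 0.382% were chosen with Oct4-EGFP highest. The 13 mitochondrial probes had medians of -0.58 over EGFP and 0.04 over Oct4-EGFP, unlike ND5.

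With EGFP highest, Anxa1, a membrane-binding annexin, read 381 and 238 in Nr5a2-EGFP cells, 17.6 in Oct4-EGFP cells and 1236 in EGFP cells. Oct4-EGFP cells were not well above background, so the 13.5-fold by which Nr5a2-EGFP exceeded them rests on a dim signal. Hesx1, a homeobox gene of early embryo and forebrain, read 344 and 265 in Nr5a2-EGFP cells, 73.4 in Oct4-EGFP cells and 709.5 in EGFP cells (-1.04 and 1.85). Nudt1, which clears oxidized nucleotides, read 1351 and 2590 in Nr5a2-EGFP cells, 1210 in Oct4-EGFP cells and 3277 in EGFP cells. With the reading of the other array its ratios were -0.16 over EGFP and -0.02 over Oct4-EGFP, so that Nudt1 no longer lay between the clones. Rab7b, an endosomal Rab protein, read 484 and 207 in Nr5a2-EGFP cells, 51.1 in Oct4-EGFP cells and 1089 in EGFP cells, and kept its place with either reading.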
